A study of Mus musculus with 24 samples.

Results

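Transcripts of 9 genes of hepatic insulin receptor signaling and its FoxO feedback were followed in fasted mouse liver. The genes were Insr, Irs1, Irs2, Pik3r1, Akt2, Grb10, Foxo1, Foxo3 and Igfbp1, chosen by name, and all 9 were found among the 35275 genes of the read count table. The study asked whether constant mTORC1 activity, from loss of Tsc1, suppresses Pparα signaling and ketogenesis, and Cpt2 was deleted to block mitochondrial oxidation of long chain fatty acids. All mice were chow-fed C57BL/6 males of 8 to 10 weeks, fasted for 24 h, and 24 liver libraries were sequenced, 4 from each of 6 groups. The control group is labeled wild type, and the methods describe control mice as floxed littermates (Tsc1 f/f; Cpt2 f/f). Tsc1 L-/- mice lacked Tsc1, Cpt2 L-/- mice lacked Cpt2, and double knockout (DKO) mice lacked both, in each case through Albumin-Cre, which is active in hepatocytes and leaves the genes intact in the other cells of the liver. Ppara KO mice are labeled as knockouts of the fatty acid sensing nuclear receptor Pparα, and Cpt2 Ppara KO mice carried that knockout together with Cpt2 L-/-. How these last groups were bred is not given in the sources used here. The labels give each library its own code without saying that each code is a separate mouse, so p-values measure the spread between these libraries.

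Insulin binds its receptor on the hepatocyte, the receptor phosphorylates the substrates Irs1 and Irs2, and these recruit phosphatidylinositol 3-kinase, which activates Akt. Akt phosphorylates the FoxO transcription factors and keeps them out of the nucleus. In fasting, insulin is low, FoxO proteins enter the nucleus, and they drive Igfbp1 and gluconeogenic genes. They also drive Irs2 and Insr, a feedback that sensitizes the starved cell to insulin. mTORC1 opposes the pathway at several steps, among them stabilization of the adaptor Grb10, which inhibits the receptor.

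In the coordinates of the deposited table, which matched GRCm38, Insr (ENSMUSG00000005534) lies at chr8:3150922-3279617 on the minus strand. The adaptor genes Irs1 (ENSMUSG00000055980) at chr1:82233101-82291416 and Irs2 (ENSMUSG00000038894) at chr8:10986980-11008458 are also on the minus strand. Pik3r1 (ENSMUSG00000041417, chr13:101680563-101768217, minus) encodes the p85α regulatory subunit of phosphatidylinositol 3-kinase, and Akt2 (ENSMUSG00000004056, chr7:27591552-27640826, plus) encodes the main Akt isoform for insulin action in liver. Grb10 (ENSMUSG00000020176) is at chr11:11930508-12038683 on the minus strand. The transcription factor genes are Foxo1 (ENSMUSG00000044167, chr3:52268337-52350109, plus) and Foxo3 (ENSMUSG00000048756, chr10:42181841-42276755, minus). Igfbp1 (ENSMUSG00000020429, chr11:7197782-7202546, plus) encodes a secreted protein that binds insulin-like growth factors. All 9 are annotated as protein coding, and the values below are for whole genes, all exons together.

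Of the 9 genes, 8 had a promoter window in the RefSeq table (GRCm38.p6), in 13 windows, and the 250 bases before each start were searched on both strands. The FoxO words searched were CAAAACA, found in insulin response elements, its close variant in the same elements, CAAAATA, and the forkhead word GTAAACA. The other words were the cAMP response element, TGACGTCA, and the E-box, CACGTG. Igfbp1 is shown because it is a well known FoxO target and Irs1 and Irs2 because they encode the paired substrates of the receptor, with every match in capitals. The stretches printed are parts of the windows, 245, 140 and 64 bases for Igfbp1, Irs1 and Irs2. Those of Igfbp1 and Irs2 end short of the RefSeq start, from which the distances below are counted.
Igfbp1, chr11:7197537-7197781, plus strand: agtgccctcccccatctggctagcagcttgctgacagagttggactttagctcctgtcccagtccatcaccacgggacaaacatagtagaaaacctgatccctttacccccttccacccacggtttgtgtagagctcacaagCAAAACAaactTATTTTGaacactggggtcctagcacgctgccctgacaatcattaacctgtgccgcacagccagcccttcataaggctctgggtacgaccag
Irs1, chr1:82291440-82291579, minus strand: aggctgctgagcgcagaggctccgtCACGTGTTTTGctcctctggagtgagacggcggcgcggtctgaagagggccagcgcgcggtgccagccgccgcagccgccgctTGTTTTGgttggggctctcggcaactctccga
Irs2, chr8:11008935-11008998, minus strand: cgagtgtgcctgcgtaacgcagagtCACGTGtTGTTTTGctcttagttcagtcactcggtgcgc
The Igfbp1 window held CAAAACA on the plus strand, 108 to 102 bases before the start, and CAAAATA on the other strand, 97 to 91 bases before it. The Irs2 window held a reversed CAAAACA 37 to 31 bases before the start, next to an E-box 44 to 39 bases before it. The Irs1 window held 2 reversed CAAAACA words, one of which overlapped an E-box. Pik3r1 had a reversed CAAAATA 151 to 145 bases before one of its starts, and no searched word occurred in the windows of the other matched genes. Among all 32851 windows in the table, 5.56% held CAAAACA, 3.95% CAAAATA, 3.17% GTAAACA, 1.55% TGACGTCA and 6.02% CACGTG, and 9.14% held CAAAACA or CAAAATA. These are matches of letters, not measured binding.

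Total counts per library ranged from 14470968 to 20371204. CPM are counts divided by TMM-scaled library totals. Tsc1 measured 24.4 ± 4.49 CPM (SD, n = 4) in Tsc1 L-/- and 16.6 ± 1.22 CPM in DKO livers, and 38.1 ± 1.39 CPM in control livers. Ppara was at 27.4 ± 16.8 CPM in Ppara KO livers and 256 ± 29.5 CPM in control livers. Cpt2 was at 92.3 ± 10.1 CPM in Cpt2 L-/- and 97.6 ± 6.84 CPM in control livers, so whole-gene counts do not check that deletion. The library labeled Cpt2 Ppara KO replicate 1 went against its label: it held 91.9 CPM of Ppara, 3250 CPM of Cyp4a14 and 3620 CPM of Ehhadh, the last 2 being Pparα targets that were at 185 to 294 and 132 to 170 CPM in the other libraries of its group. For calls that rest on it, the edgeR result without it is stated beside the call. Tsc1 L-/- replicate 3 also stood apart from its group on these targets. It held 513 CPM of Cyp4a14 and 142 CPM of Ehhadh, against 4210 to 5810 and 713 to 1810 CPM in the other Tsc1 L-/- libraries. Cd1d2 was at 11.2 to 60.7 CPM in all control, Tsc1 L-/- and DKO libraries and at 0.0696 to 0.828 CPM in all Cpt2 L-/-, Ppara KO and Cpt2 Ppara KO libraries. The labels name no batch, and a comparison that crosses this division cannot be told apart from it. Cpt2 L-/- against control, DKO against Cpt2 L-/-, Ppara KO against control and both interactions cross it, and the other comparisons do not. Cd1d2, Cyp4a14 and Ehhadh were chosen after their values were seen.

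Levels can be compared between genes only per length, for which the deposited FPKM (fragments per kilobase and per library total) were used. In control livers the order was Igfbp1, Akt2, Insr, Pik3r1, Foxo3, Foxo1, Irs2, Irs1 and Grb10. Igfbp1 was at 141 ± 71.4 FPKM (SD, n = 4) and Akt2 at 29 ± 2.34 FPKM. Insr at 14.6 ± 2.16, Pik3r1 at 13.9 ± 2.07 and Foxo3 at 11.9 ± 2.18 FPKM overlapped one another across libraries. Foxo1 was at 9.23 ± 2.36 FPKM and overlapped Foxo3 and Irs2, the latter at 5.36 ± 1.91 FPKM. The lowest pair were Irs1 at 1.61 ± 0.376 and Grb10 at 0.818 ± 0.276 FPKM, which did not overlap. The substrate genes therefore stood apart, with every control library of Irs2 (3.31 to 7.92 FPKM) above every control library of Irs1 (1.14 to 2.05 FPKM). Igfbp1 ranked first and Akt2 second in all 6 groups.

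**Figure D1:**
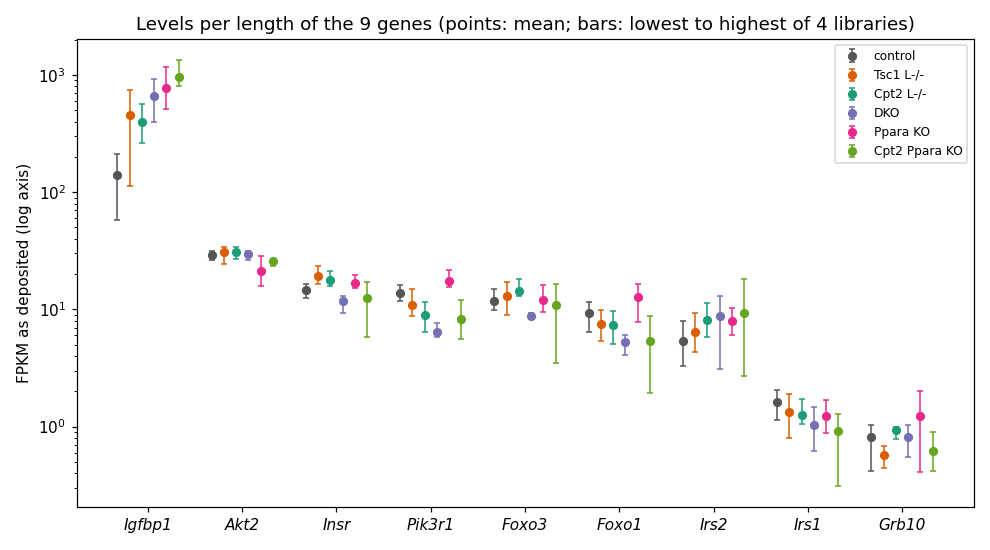
FPKM as deposited, on a log axis, for the 9 genes in the 6 groups, with points at the mean and bars from the lowest to the highest of 4 libraries. Igfbp1 lies above the other genes in every group, from a mean of 141 FPKM in control livers to 970 FPKM in Cpt2 Ppara KO livers, and Irs1 and Grb10 lie lowest.

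All 9 genes passed the filter on low counts, with 13641 genes tested in the fit of DKO libraries with the single Tsc1 and Cpt2 knockouts and controls and 13615 in the fit of control, Cpt2 L-/-, Ppara KO and Cpt2 Ppara KO libraries. Differences below are log2 fold changes of edgeR with the standard error, and a gene was called at an adjusted p under 0.05 by edgeR's quasi-likelihood test with Benjamini-Hochberg adjustment over all genes tested. In Tsc1 L-/- against control, 0 of 9 genes were called by edgeR, where 4.16% of all genes were called higher and 2.48% lower, and 4 of the 9 had an unadjusted p under 0.05, 2 in each direction (all genes, 11.8% higher and 9.24% lower at that p). DESeq2 called 1, beside 5.81% of all genes higher and 4.01% lower. In Cpt2 L-/- against control 1 gene was lower, against 16.2% of all genes higher and 14.9% lower. In DKO against control 5 genes were lower and 1 was higher, where 17.1% of all genes were lower and 19.3% higher. The median of the 9 differences was −0.47 there, and that of all tested genes 0.017. With limma on log2(FPKM + 1), without TMM scaling, 2 of the 9 genes were lower and 1 higher, the shares over all genes were 10.8% lower and 27.9% higher, and the median of all genes was 0.12.

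DKO livers had 2 of the 9 genes lower than Cpt2 L-/- livers, where the share over all genes was 7.4% lower and 10.9% higher. Against Tsc1 L-/- livers 3 genes were lower in DKO livers, with 15.2% of all genes lower and 16.9% higher. The interaction of Tsc1 and Cpt2 deletion was called for 1 gene, in the negative direction, where 1.28% of all genes were negative and 1.09% positive. In Ppara KO against control 1 gene was higher, with 15.9% of all genes higher and 13.2% lower. Cpt2 Ppara KO livers had 1 gene higher than Cpt2 L-/- livers, where 10.3% of all genes were higher and 8.01% lower, and 2 genes lower than Ppara KO livers, where 12.6% were lower and 12.9% higher. Without the library labeled Cpt2 Ppara KO replicate 1 the same counts of the 9 genes stood beside 6.74% higher and 6.59% lower against Cpt2 L-/-, and 6.69% lower and 5.74% higher against Ppara KO. In fits of 2 groups alone, Cpt2 Ppara KO against Ppara KO had 1 of the 9 genes lower and 0.407% of all genes lower and 0.462% higher. The interaction of Cpt2 and Ppara was called by edgeR for 0 of 9 genes, where 12% of all genes were called in each direction. Without the library labeled Cpt2 Ppara KO replicate 1 those shares were 11.6% negative and 10.6% positive. At an unadjusted p under 0.05, 2 of the 9 were negative (all genes, 18.8% negative and 18.9% positive at that p). DESeq2 called 0 of the 9, beside 14.1% of all genes negative and 14.3% positive. These comparisons share libraries and are not independent of one another.

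**Figure D2:**
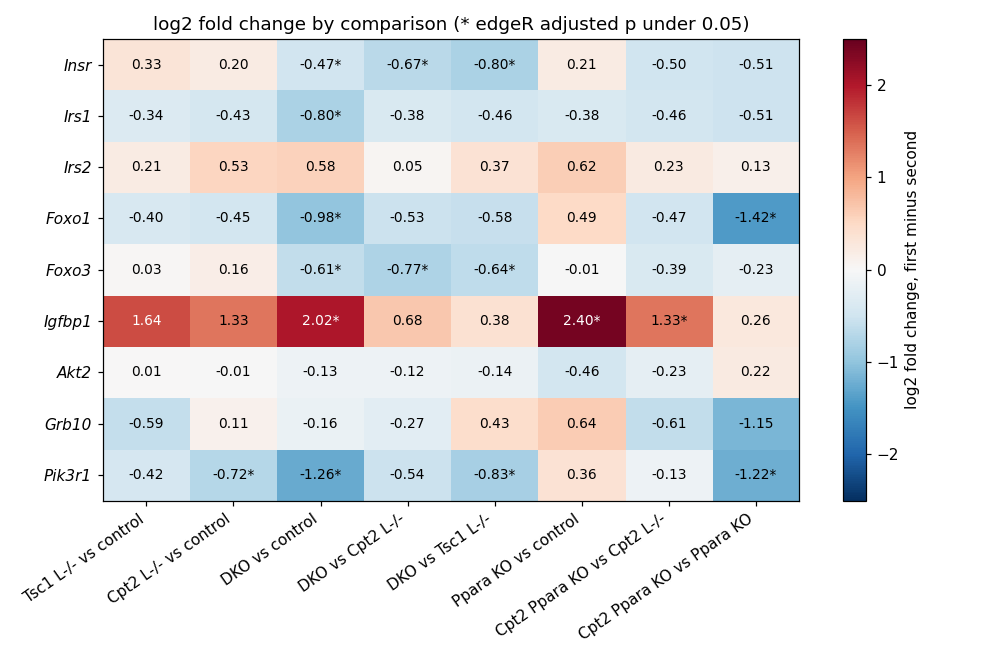
log2 fold change of the 9 genes (rows) in the 8 comparisons of pairs of groups (columns), first group minus second, with an asterisk where edgeR's adjusted p was under 0.05. The DKO against control column holds 6 called genes, and the Igfbp1 row holds the largest rise, 2.40 in Ppara KO against control.

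Igfbp1, the FoxO target that insulin represses, was higher in every knockout group mean than in control livers, and the rise was called in DKO and Ppara KO livers. Cpt2 Ppara KO livers were not tested against control livers. Control libraries held 300, 373, 84.6 and 166 CPM. Ppara KO libraries held 1170, 1010, 1940 and 807 CPM, all above the highest control library. The difference was 2.4 ± 0.4, a 5.27-fold rise (adjusted p = 0.000401, edgeR), and it was called under all 16 alternatives (2.1 to 2.73).

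DKO libraries held 544, 735, 1170 and 1330 CPM of Igfbp1 and also lay above every control library. The rise was 4.05-fold, a difference of 2.02 ± 0.63 (adjusted p = 0.0235, edgeR). It was not called without control replicate 3 (1.75, adjusted p = 0.0596), control replicate 4 (1.89, 0.0621), DKO replicate 3 (1.9, 0.0518) or DKO replicate 4 (1.81, 0.0588). Cpt2 L-/- libraries, at 777, 408, 481 and 713 CPM, were likewise all above control, with a difference of 1.33 ± 0.62 that edgeR did not call (adjusted p = 0.119). DESeq2 called it (adjusted p = 0.0481), as did limma on log2(FPKM + 1) (1.59, adjusted p = 0.0377). Tsc1 L-/- libraries divided, with 1200 and 1210 CPM in replicates 1 and 2 and 160 and 321 CPM in replicates 3 and 4. The lower pair lay within the control range. The difference of 1.64 ± 0.62 was not called by edgeR (adjusted p = 0.144) but was called by DESeq2 (adjusted p = 0.0356) and by edgeR without Tsc1 L-/- replicate 3 (1.97, adjusted p = 0.0492).

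Cpt2 Ppara KO libraries had the highest group mean of Igfbp1, with 1290, 2210, 1320 and 1170 CPM, all above the Cpt2 L-/- libraries. The rise over Cpt2 L-/- was 1.33 ± 0.39 (adjusted p = 0.0264, edgeR), and 1.4 (adjusted p = 0.0379) without the library labeled replicate 1. It was not called without Cpt2 Ppara KO replicate 2 (1.09, adjusted p = 0.092), nor without Cpt2 L-/- replicate 2 (1.19, 0.0711), 3 (1.25, 0.0853) or 4 (1.42, 0.0543), nor in the fit of all 24 libraries (1.33, 0.0673). Against Ppara KO livers the groups overlapped, and the difference of 0.26 ± 0.38 was not called (adjusted p = 0.641, edgeR). In the order of group means, control (231), Cpt2 L-/- (595), Tsc1 L-/- (723), DKO (943), Ppara KO (1230) and Cpt2 Ppara KO (1500 CPM), only control and Cpt2 L-/- did not overlap as neighbors.

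**Figure D3:**
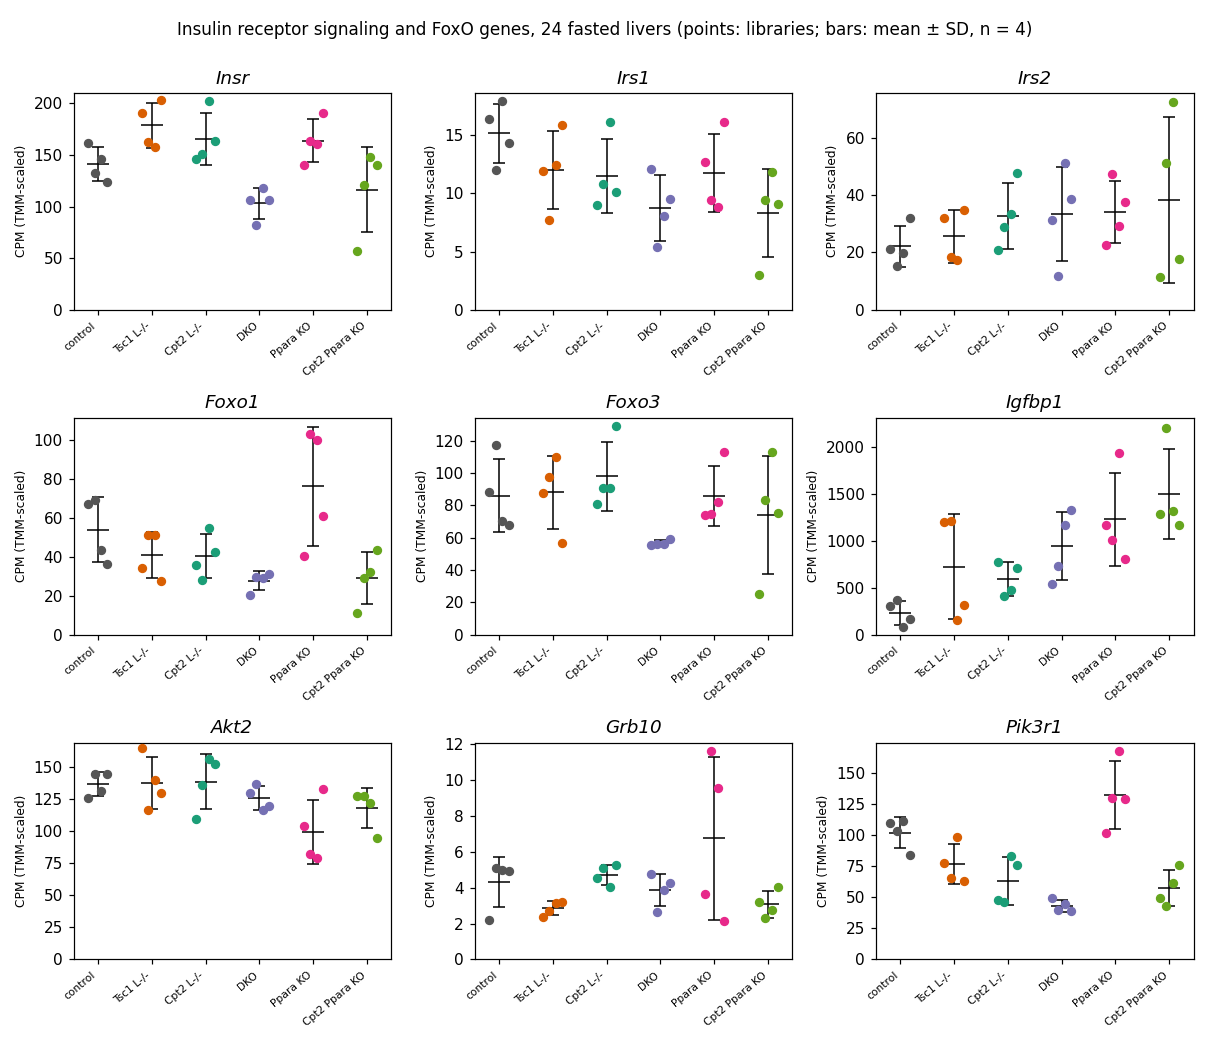
CPM scaled by TMM in each of the 24 libraries for the 9 genes, with points for libraries and bars for the mean ± SD of 4. The 4 Igfbp1 control libraries lie at 84.6 to 373 CPM, below all DKO, Ppara KO and Cpt2 Ppara KO libraries, and the lone low point of Insr, Irs1, Foxo1 and Foxo3 in the last group is replicate 1.

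Insr, the insulin receptor, was lowest in DKO livers and was the 1 gene with a called interaction. Control libraries held 162, 133, 146 and 124 CPM, Tsc1 L-/- libraries 191, 163, 158 and 203 CPM, and Cpt2 L-/- libraries 146, 151, 202 and 164 CPM. DKO libraries held 106, 81.9, 118 and 106 CPM, below every library of those 3 groups. The fall was −0.47 ± 0.14 against control (adjusted p = 0.0135, edgeR), −0.67 ± 0.14 against Cpt2 L-/- (adjusted p = 0.00346) and −0.8 ± 0.14 against Tsc1 L-/- (adjusted p = 0.000272). The last 2 were called under all 16 alternatives. The first was not called without control replicate 1 (−0.38, adjusted p = 0.0573) or without DKO replicate 2 (−0.37, 0.0537), in the fit of all 24 libraries (−0.48, 0.0958) or by limma on log2(FPKM + 1) (−0.29, 0.103).

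Each single deletion left the Insr mean above control without a call, at 0.33 ± 0.14 for Tsc1 L-/- (adjusted p = 0.164, edgeR) and 0.2 ± 0.14 for Cpt2 L-/- (adjusted p = 0.294). The effect of Tsc1 deletion was lower by 1 unit on the log2 scale where Cpt2 was deleted too, an interaction of −1 ± 0.2 (adjusted p = 0.0121, edgeR). It was called under 22 of 23 alternatives (−1.11 to −0.9) and not in the fit of all 24 libraries, where it was −1.02 (adjusted p = 0.152). Ppara KO libraries held 140 to 191 CPM, overlapping control, and the difference was 0.21 ± 0.23 (adjusted p = 0.533). Cpt2 Ppara KO libraries held 56.9, 121, 148 and 140 CPM, the lowest being the library labeled replicate 1. Their difference from Cpt2 L-/- was −0.5 ± 0.23 (adjusted p = 0.138, edgeR), and −0.28 (adjusted p = 0.29) without that library.

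**Figure D4:**
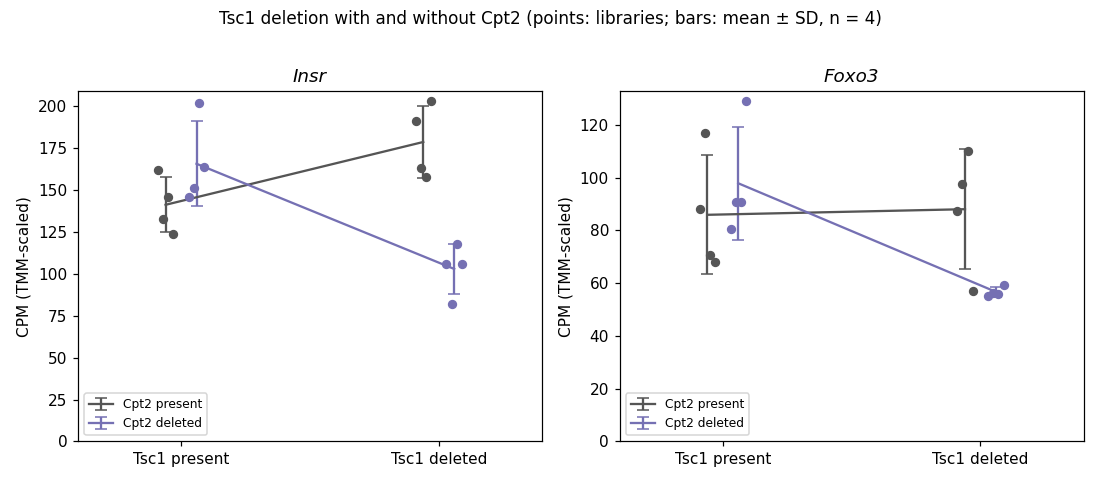
CPM of Insr and Foxo3 with and without Tsc1 (horizontal axis), gray where Cpt2 is present and purple where it is deleted, with points for libraries and lines joining group means ± SD of 4. For Insr the gray line goes from 141 to 179 CPM and the purple line from 165 to 103 CPM, and for Foxo3 the purple line ends at 56.7 CPM.

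The substrate genes differed from each other. Irs1 was lower in DKO livers, with 12.1, 5.36, 8.02 and 9.52 CPM against 16.4, 12, 17.9 and 14.3 CPM in control livers. The groups overlapped at 1 library each, and the difference was −0.8 ± 0.25 (adjusted p = 0.0172, edgeR). It was not called without control replicate 3 (−0.71, adjusted p = 0.0544), without DKO replicate 2 (−0.62, 0.0598), with all 24 libraries (−0.82, 0.0568) or by limma on log2(FPKM + 1) (−0.37, 0.0771). No other comparison of Irs1 was called, and its highest group mean was 15.2 CPM in control livers. The Irs1 mean of Cpt2 Ppara KO livers was 8.31 CPM, and 10.1 ± 1.47 CPM (SD, n = 3) without the library labeled replicate 1, which puts DKO livers, at 8.75 CPM, lowest. Irs2, the FoxO-driven substrate, was called in no comparison. Its mean was 22.2 ± 7.16 CPM in control, 25.6 ± 9.14 in Tsc1 L-/-, 32.7 ± 11.4 in Cpt2 L-/-, 33.3 ± 16.5 in DKO, 34.2 ± 10.8 in Ppara KO and 38.2 ± 28.9 CPM in Cpt2 Ppara KO livers. All neighboring groups in that order overlapped. The largest difference of Irs2 was 0.62 ± 0.45, in Ppara KO against control (adjusted p = 0.315, edgeR).

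Pik3r1 was lower in each group with Cpt2 deletion than in the group with the same Tsc1 or Ppara status and intact Cpt2. Control libraries held 110, 103, 111 and 84.4 CPM, and Cpt2 L-/- libraries 47.6, 46.3, 83.5 and 76.3 CPM, with no overlap. The fall was −0.72 ± 0.18 (adjusted p = 0.0065, edgeR). DKO libraries held 49.6, 39.9, 44.3 and 38.6 CPM, all below control and all below the Tsc1 L-/- libraries at 77.7, 65.9, 98.6 and 63.3 CPM. The difference was −1.26 ± 0.19 against control (adjusted p = 5.64e-05) and −0.83 ± 0.19 against Tsc1 L-/- (adjusted p = 0.00221, edgeR).

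Among Ppara-deficient livers, Pik3r1 was at 49.5, 43.1, 61.3 and 76 CPM with Cpt2 deletion and at 102, 130, 168 and 129 CPM without it. The libraries did not overlap, and the difference was −1.22 ± 0.23 (adjusted p = 0.00399, edgeR), and −1.15 (adjusted p = 0.0111) without the library labeled Cpt2 Ppara KO replicate 1. These 4 falls were called under all 16 alternatives of each comparison. DKO against Cpt2 L-/- missed the threshold, at −0.54 ± 0.18 (adjusted p = 0.051, edgeR), and passed it with DESeq2 (adjusted p = 0.0291), RLE size factors (0.0442) and the replicate block (0.0411). Tsc1 L-/- against control was −0.42 ± 0.18 (adjusted p = 0.191) and Ppara KO against control 0.36 ± 0.22 (adjusted p = 0.237). The Cpt2 by Ppara interaction of −0.49 ± 0.32 was not called (adjusted p = 0.265, edgeR).

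Akt2, the kinase downstream, differed least of the 9 genes between control and the liver-specific knockout groups, at 137 ± 9.59 CPM in control, 138 ± 20.4 in Tsc1 L-/-, 139 ± 21.4 in Cpt2 L-/- livers and, in DKO livers, 126 ± 8.89 CPM. Every one of these groups overlapped the others. Ppara KO livers had the lowest mean, 99.7 ± 25 CPM, with libraries at 104, 82.5, 78.9 and 133 CPM. The difference from control, −0.46 ± 0.18, was not called by edgeR in its fit of 16 libraries (adjusted p = 0.0607), but was called by DESeq2 (adjusted p = 0.041) and in the fit of all 24 libraries (0.0295). Without Ppara KO replicate 4 it was −0.62 (adjusted p = 0.0126, edgeR). Cpt2 Ppara KO livers were at 118 ± 15.9 CPM. Grb10, the receptor inhibitor, rested on 31 to 154 reads per library and was called in no comparison by edgeR with TMM scaling of all 16 libraries. Its group means lay between 2.85 ± 0.392 CPM in Tsc1 L-/- and 6.73 ± 4.56 CPM in Ppara KO livers, where libraries held 3.65, 11.6, 9.55 and 2.13 CPM. Control replicate 1, at 2.2 CPM, stood below the other control libraries at 4.91 to 5.07 CPM, and without it the Tsc1 L-/- difference was −0.8 (adjusted p = 0.042, edgeR) in place of −0.59 ± 0.25 (0.186). Cpt2 Ppara KO against Ppara KO was −1.15 ± 0.42 (adjusted p = 0.0505), and it was called by DESeq2 (adjusted p = 0.0251), by edgeR with RLE size factors (0.0499) and in the fit of all 24 libraries (0.022). Without the library labeled Cpt2 Ppara KO replicate 1 it was −1.16 (adjusted p = 0.106, edgeR).

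Foxo1 was lower in DKO than in control livers, and lower in Cpt2 Ppara KO than in Ppara KO livers. Control libraries held 67.2, 69, 43.4 and 36.1 CPM and DKO libraries 20.4, 29.7, 29.1 and 31.1 CPM, without overlap. The fall was −0.98 ± 0.26 (adjusted p = 0.00765, edgeR) and was called under all 16 alternatives. Tsc1 L-/- (34.4, 50.9, 50.9 and 27.6 CPM) and Cpt2 L-/- (35.7, 28.2, 54.7 and 42.6 CPM) lay between, at −0.4 ± 0.25 (adjusted p = 0.405) and −0.45 ± 0.25 (adjusted p = 0.198, edgeR). Neither was called, and both groups overlapped control and DKO.

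Ppara KO livers held the highest Foxo1 levels, 40.3, 103, 100 and 60.9 CPM, and Cpt2 Ppara KO livers 11.2, 29.2, 31.9 and 43.3 CPM. The groups overlapped at 1 library each, and the fall was −1.42 ± 0.37 (adjusted p = 0.0134, edgeR). Without the library labeled Cpt2 Ppara KO replicate 1, the lowest of all 24, it was −1.15 (adjusted p = 0.0353). It was not called in a fit of these 2 groups alone (adjusted p = 0.0723). The interaction of −0.96 ± 0.51 was not called (adjusted p = 0.177, edgeR). Against Cpt2 L-/- livers, Foxo1 in Cpt2 Ppara KO livers was not called. Without the library labeled Cpt2 Ppara KO replicate 1 that difference was −0.2 (adjusted p = 0.735, edgeR). Cpt2 Ppara KO livers were not tested against control.

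Foxo3 was lower in DKO livers than in each other group of its fit, and its DKO libraries lay within a narrow range, 55.2, 56.2, 55.9 and 59.4 CPM. Control libraries held 88.1, 117, 70.5 and 67.9 CPM, Cpt2 L-/- libraries 80.6, 90.8, 90.9 and 129 CPM, and Tsc1 L-/- libraries 87.5, 97.6, 110 and 56.9 CPM. Only Tsc1 L-/- replicate 4 fell within the DKO range. The differences were −0.61 ± 0.2 against control (adjusted p = 0.0221), −0.77 ± 0.2 against Cpt2 L-/- (adjusted p = 0.0126) and −0.64 ± 0.2 against Tsc1 L-/- (adjusted p = 0.0183, edgeR). In the fit of all 24 libraries they kept about the same size and none was called (adjusted p = 0.122, 0.102 and 0.117).

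Against control, the Foxo3 fall was also not called without control replicate 2 (−0.42, adjusted p = 0.0948), without DKO replicate 2 (−0.6, 0.0514) or by limma on log2(FPKM + 1) (−0.38, 0.0773). Against Tsc1 L-/- it was not called without Tsc1 L-/- replicate 3 (−0.52, adjusted p = 0.0665). The Tsc1 by Cpt2 interaction of −0.8 ± 0.28 was not called (adjusted p = 0.13, edgeR) except without Tsc1 L-/- replicate 4 (−0.96, adjusted p = 0.0458). Ppara KO livers were at 85.9 ± 18.7 CPM, near control at 85.8 ± 22.5 CPM. Cpt2 Ppara KO libraries held 24.9, 83.3, 113 and 75.1 CPM, and the lowest was again the library labeled replicate 1.

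Marker genes of liver cell types moved with several of these results. In DKO against control livers, summed Kupffer cell markers (6 of 7 listed genes are in the table, all detected) were at 116 to 177 and 212 to 360 CPM, stellate cell markers at 175 to 218 and 282 to 344 CPM and endothelial markers at 209 to 334 and 356 to 394 CPM. Lymphocyte markers were at 1.87 to 3.47 and 6.28 to 37.5 CPM, and hepatocyte markers at 26900 to 33500 and 61900 to 78300 CPM, with Alb at 12700 ± 1780 and 43400 ± 3450 CPM. None of these sums overlapped between DKO and control livers. Within these lists Stab2 (112 and 98.2 CPM), Lyve1 (24.5 and 19.5 CPM) and Cd3e (0.545 and 0.347 CPM) had higher means in DKO than in control livers. Their other markers had lower means. Against Tsc1 L-/- livers, DKO livers were also without overlap for hepatocyte (38800 to 62500 CPM in Tsc1 L-/-), Kupffer (235 to 370 CPM), endothelial (351 to 413 CPM), lymphocyte (4.11 to 7.32 CPM) and cholangiocyte markers (31.7 to 35.7 CPM, and 20.5 to 27.1 CPM in DKO), all lower in DKO. Within those lists only Apoa1 (10600 and 10100 CPM) and Cd3e (0.545 and 0.274 CPM) had higher means in DKO than in Tsc1 L-/- livers. The adipocyte list, at 4.54 to 48.4 CPM in Tsc1 L-/- and 403 to 557 CPM in DKO livers, did not overlap either and was higher in DKO. Against Cpt2 L-/- livers, lymphocyte markers (4.02 to 5.07 CPM) were without overlap.

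Where Pik3r1 fell in Cpt2 L-/- livers, hepatocyte markers summed to 32500 to 56600 CPM and lymphocyte markers to 4.02 to 5.07 CPM, both below all control libraries. Within these lists only Cd3e had a higher mean in Cpt2 L-/- than in control livers (0.546 and 0.347 CPM). Where Igfbp1 rose in Ppara KO livers, endothelial markers were at 291 to 338 CPM and lymphocyte markers at 3.02 to 6.17 CPM, both below all control libraries. Within these lists Lyve1 (68.9 CPM in Ppara KO and 19.5 CPM in control livers) and Pecam1 (31.8 and 31.1 CPM) had higher means. Their other markers had lower means. Where Pik3r1 and Foxo1 fell in Cpt2 Ppara KO against Ppara KO livers, stellate cell markers were at 221 to 265 and 274 to 302 CPM and cholangiocyte markers at 13.5 to 21.4 and 26.1 to 48.2 CPM, whereas the adipocyte list was at 123 to 513 and 30.4 to 115 CPM. Of the stellate means, Reln (24.3 and 79 CPM), Des, Col1a1 and Ngfr were lower in Cpt2 Ppara KO livers. Lrat (15.1 and 8.08 CPM), Rgs5 (48.3 and 35.3 CPM) and Dcn (146 and 142 CPM) were higher there. All cholangiocyte means were lower there, with the largest drop in Sox9 (1.93 and 16.1 CPM, and 3.23 CPM in control livers). The part of these marker differences in the results was not tested, and in whole tissue fewer cells of a type and less RNA per cell cannot be told apart. The adipocyte list summed to 366 to 699 CPM in livers without Cpt2 alone (7 of 7 genes detected) and to 403 to 557 CPM in DKO livers (5 of 7), against 31.1 to 62.8 CPM in control livers (4 of 7). Cidec, a lipid droplet gene, made up most of it, at means of 556 CPM in Cpt2 L-/-, 491 CPM in DKO and 45.6 CPM in control livers. The defining markers were low but higher in Cpt2 L-/- than in control means, with Adipoq at 0.663 and 0.0723 CPM, Plin1 at 0.647 and 0 CPM and Cfd at 3.12 and 0.8 CPM, whereas in DKO livers Adipoq was at 0.0134 and Plin1 at 0.0829 CPM. Their part was not tested. The pancreatic acinar list was at 8.44 to 11 CPM in control, 6.31 to 7.82 CPM in DKO, 3.9 to 6.91 CPM in Cpt2 L-/- and 6.99 to 15.9 CPM in Cpt2 Ppara KO livers, and in these groups its counts were nearly all of Cela1, with Cpa1, Pnlip, Cel, Ctrb1 and Amy2b at 0. Hepatocyte genes such as Alb and Apoa1 were abundant in all groups, as the tissue label states.

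The wider pathway was described with 7 lists of 91 genes, none of them one of the 9. No list was tested as a set, and counts are read beside the share of all genes called. In DKO against control, 13 of the list genes were higher and 20 lower, where 19.3% of all genes were higher and 17.1% lower. Of insulin-like growth factors and their binding proteins, 6 of 9 tested genes were lower and 0 higher, with a median difference of −1.03 against 0.02 over all genes. Igfbp4 fell from 2460 ± 178 to 926 ± 115 CPM (−1.42, adjusted p = 1.62e-06, edgeR). Igf1, Igfals and Igfbp3 were also among the called genes, and so was Igf2, at a mean of 0.358 CPM in DKO livers. These 4, Igfbp7 and Pck1 are named with their values seen. The binding protein genes called lower were Igfbp3, Igfbp4 and Igfbp7, opposite in direction to Igfbp1.

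Of 19 other FoxO target genes, 3 were higher and 5 lower in DKO than in control livers (median −0.21 against 0.02 over all genes), which is near the shares over all genes. Pdk4, which restrains pyruvate oxidation and is also a Pparα target, rose by 5.37 (adjusted p = 3.96e-06). G6pc, the last enzyme of glucose production, fell by 1.61 (adjusted p = 0.000938, edgeR). Pck1, the gluconeogenic carboxykinase, fell from 5330 ± 477 to 2600 ± 410 CPM (−1.04, adjusted p = 0.000104), opposite in direction to Igfbp1. Among receptors and adaptors 1 of 11 tested genes rose and 1 fell: Grb14, an inhibitor of the receptor and relative of Grb10, rose by 0.71 (adjusted p = 0.00226) and Grb7 fell by 0.55 (adjusted p = 0.00979). Of 12 PI3K and Akt kinase genes 2 rose and 2 fell, and the rises were led by Pdpk1, the kinase that phosphorylates Akt, at 0.82 (adjusted p = 0.000164).

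Of 15 brakes on the pathway 2 rose and 4 fell in DKO against control, with Trib3, a pseudokinase that binds Akt, at 2.17 (adjusted p = 0.028) and Socs3, a suppressor of receptor signaling, at −0.84 (adjusted p = 0.0123, edgeR). Of 13 Akt substrates and effectors 5 rose and 1 fell, with Prkcz at 0.78 (adjusted p = 0.000295) and Foxo4, another FoxO gene, at −0.48 (adjusted p = 0.00237). Of 8 insulin-induced genes 0 rose and 1 fell, the fatty acid elongase Elovl6 (−1.14, adjusted p = 0.0256). Their median was −0.75 against 0.02 over all genes. Foxo4 thus moved in the same direction as Foxo1 and Foxo3.

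**Figure D5:**
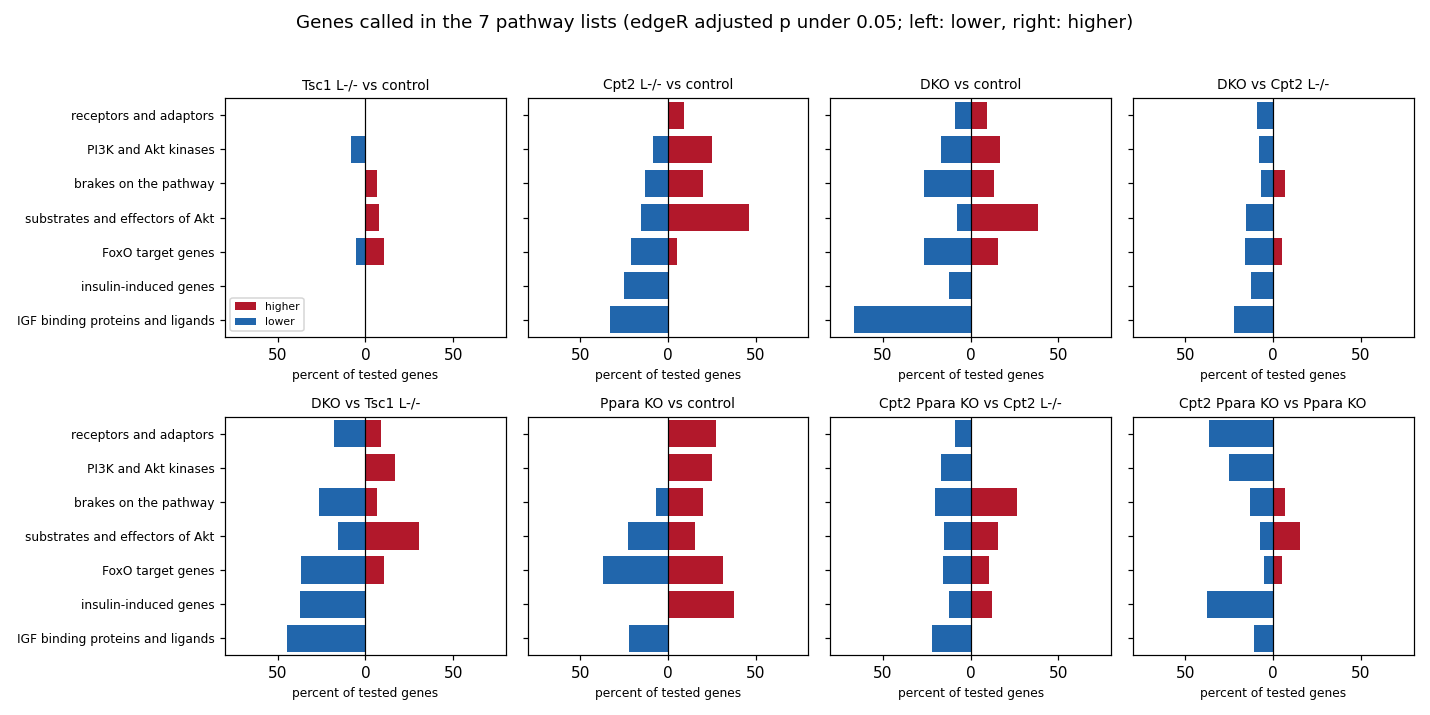
Percent of tested genes in each of the 7 pathway lists that edgeR called higher (right, red) or lower (left, blue) in the 8 comparisons of pairs of groups. The list of insulin-like growth factors and binding proteins holds 6 of 9 genes lower and none higher in DKO against control, and Tsc1 L-/- against control holds few called genes in any list.

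In Tsc1 L-/- against control, 4 list genes were higher and 2 lower (all genes, 4.16% and 2.48%). Sesn3, a FoxO target that restrains mTORC1, rose from 5.61 ± 0.972 to 18.9 ± 5.37 CPM (1.75, adjusted p = 0.000116, edgeR), and Txnip, an inhibitor of glucose uptake, fell by 0.92 (adjusted p = 0.0315). Prkcz rose by 0.51 (adjusted p = 0.0318), the lipid phosphatase gene Inppl1 rose by 0.38 (adjusted p = 0.0482), and Prr5, a subunit of mTORC2, fell by 0.62 (adjusted p = 0.0492). In Cpt2 L-/- against control, 14 list genes were higher and 14 lower (all genes, 16.2% and 14.9%). Pdk4 rose by 4.97 (adjusted p = 1.04e-05), Grb14 by 0.97 (adjusted p = 0.000185), Phlpp2, an Akt phosphatase, by 0.92 (adjusted p = 0.000481), Pdpk1 by 0.79 (adjusted p = 0.000305) and Sik2 by 0.78 (adjusted p = 0.00368, edgeR). The largest falls of their lists with a mean of at least 1 CPM were those of Igfals at −1.84 (adjusted p = 8.31e-06), G6pc at −1.75 (adjusted p = 0.000584), the glycolytic enzyme gene Pklr at −1.58 (adjusted p = 0.0144), Ahsg, which encodes fetuin-A, at −1.31 (adjusted p = 0.000188) and Foxo4 at −0.63 (adjusted p = 0.000298). The fall of Pik3r1 there stood beside rises of Pdpk1 and of the catalytic subunit gene Pik3ca (0.38, adjusted p = 0.0103), the latter named after its value was seen.

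DKO and Cpt2 L-/- livers differed at 2 list genes higher and 11 lower in DKO (all genes, 10.9% and 7.4%). Sesn3 rose by 1.03 (adjusted p = 0.00458) and Enpp1, an inhibitor of the receptor, by 0.51 (adjusted p = 0.0173, edgeR). Egr1 fell by 1.61 (adjusted p = 0.0336), Igfbp3 by 1.16 (adjusted p = 0.00501), Bcl2l11 by 0.93 (adjusted p = 0.0143) and Gys2, glycogen synthase of liver, by 0.88 (adjusted p = 0.00501). Rictor, which defines mTORC2, fell by 0.61 (adjusted p = 0.00773), the Akt phosphatase gene Phlpp1 by 0.5 (adjusted p = 0.00594) and the adaptor Gab1 by 0.44 (adjusted p = 0.0297). In the interaction of Tsc1 and Cpt2, Gab1 (−0.87, adjusted p = 0.0234) and Gys2 (−1.13, adjusted p = 0.0344) were the 2 list genes called, beside Insr (all genes, 1.28% negative and 1.09% positive).

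Against Tsc1 L-/- livers, DKO livers had 10 list genes higher and 22 lower (all genes, 16.9% and 15.2%). Pdk4 rose by 6.29 (adjusted p = 2.58e-06), Prr5 by 0.96 (adjusted p = 0.000589), Grb14 by 0.76 (adjusted p = 0.0015), Gsk3a by 0.75 (adjusted p = 6.95e-05) and Stub1 by 0.55 (adjusted p = 0.00481, edgeR). Scd1, the stearoyl desaturase that insulin induces, was at 2060 ± 1300 CPM in Tsc1 L-/- and 134 ± 152 CPM in DKO livers (−3.94, adjusted p = 0.00334). G6pc fell by 2.02 (adjusted p = 0.000188), Igfbp4 by 1.4 (adjusted p = 2.73e-06), Ahsg by 0.91 (adjusted p = 0.0033), Grb7 by 0.63 (adjusted p = 0.00434) and Foxo4 by 0.6 (adjusted p = 0.000424). Insulin-induced genes had 3 of 8 lower and 0 higher there (median −1.52 against 0 over all genes).

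Ppara KO livers had 20 list genes higher and 13 lower than control livers (all genes, 15.9% and 13.2%). Of 11 tested receptors and adaptors 3 rose and 0 fell, led by Grb14 (0.88, adjusted p = 0.00204), and of 12 kinases 3 rose and 0 fell, led by Rictor (1.1, adjusted p = 0.000195, edgeR). The kinases called higher were 1 without the low-count filter (all genes, 8.01% higher) and 2 in the fit of 2 groups (14.8% higher). Gadd45a rose by 3.83 (adjusted p = 0.00043), the fatty acid synthase gene Fasn by 2.51 (adjusted p = 0.00871), Trib3 by 2.11 (adjusted p = 0.00016) and Gsk3b by 1.09 (adjusted p = 0.000727). Igfals fell by 2.51 (adjusted p = 1.31e-05), catalase (Cat) by 1.68 (adjusted p = 0.000184), Gys2 by 1.25 (adjusted p = 0.0314) and Stub1 by 0.39 (adjusted p = 0.0448). Of 19 FoxO targets 6 were higher and 7 lower, but 2 and 6 without the low-count filter and 4 and 7 with the replicate block.

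Cpt2 Ppara KO livers had 9 list genes higher and 14 lower than Cpt2 L-/- livers (all genes, 10.3% and 8.01%), and 9 and 10 without the library labeled replicate 1 (all genes, 6.74% and 6.59%). Gadd45a rose by 2.41 (adjusted p = 0.0137), Socs3 by 1.41 (adjusted p = 0.0307) and Pfkfb2 by 0.76 (adjusted p = 0.0263, edgeR). Pdk4 fell by 2.93 (adjusted p = 0.0245), Igfbp2 by 1.3 (adjusted p = 0.0118) and Phlpp2 by 1.12 (adjusted p = 0.00294). Each of these was also called without that library, Pdk4 at −4.08 (adjusted p = 0.00901). Srebf1, which controls lipogenic genes, fell by 0.99 (adjusted p = 0.0233) and was not called without it (−0.8, adjusted p = 0.0599). Sik2 fell by 0.77 (adjusted p = 0.0118) and the regulatory subunit gene Pik3r2 by 0.75 (adjusted p = 0.00967), both called without it too, whereas Frs2, at −0.55 (adjusted p = 0.0337), was not (−0.48, adjusted p = 0.0776).

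Against Ppara KO livers, Cpt2 Ppara KO livers had 4 list genes higher and 15 lower, where 12.9% of all genes were higher and 12.6% lower, and 3 and 11 without that library, where 5.74% were higher and 6.69% lower. Receptors and adaptors had 4 of 11 lower and 0 higher (median −0.49 against 0.01 over all genes), among them Igf1r, the receptor of insulin-like growth factor 1 (−1.02, adjusted p = 0.0418). Without that library 3 were lower and Igf1r was not called (−0.83, adjusted p = 0.126). Kinases had 3 of 12 lower and 0 higher, among them Pik3r3 (−0.84, adjusted p = 0.0282), and 0 lower without that library (Pik3r3 at −0.85, adjusted p = 0.0591). Fasn fell by 3.56 (adjusted p = 0.00464), Igfbp5 fell by 2.54 (adjusted p = 0.00465), Cited2 by 2.08 (adjusted p = 0.00629), Phlpp2 by 0.92 (adjusted p = 0.00944) and Gsk3b by 0.8 (adjusted p = 0.0108, edgeR). All 5 were also called without that library, at −3.26, −2.46, −1.89, −0.84 and −0.67, with adjusted p from 0.0172 to 0.0321. Ppargc1a, the coactivator of FoxO1 and Pparα, rose by 1.6 (adjusted p = 0.0076), Gys2 by 1.49 (adjusted p = 0.0183) and Stub1 by 0.39 (adjusted p = 0.0492), of which Ppargc1a (1.72, adjusted p = 0.015) and Gys2 (1.67, adjusted p = 0.0284) were called without that library and Stub1 was not (0.36, adjusted p = 0.1). The interaction of Cpt2 and Ppara was called for 24 list genes, 7 positive and 17 negative (all genes, 12% in each direction), and for 28, 11 positive and 17 negative, without that library (all genes, 10.6% positive and 11.6% negative). Genes with the largest interaction of their lists included Pdk4 (−5.86, adjusted p = 0.00334), Fasn (−3, adjusted p = 0.0233) and Phlpp2 (−1.84, adjusted p = 0.000929) among the negative and Igfals (1.79, adjusted p = 0.00441), Ppargc1a (1.7, adjusted p = 0.0205) and Bad (1.55, adjusted p = 0.00303) among the positive. All 6 were also called without that library, with Pdk4 at −7.01 (adjusted p = 0.00163) and Fasn at −2.7 (adjusted p = 0.0477).

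Over the 24 libraries, the gene whose log2 CPM followed each of the 9 most closely was taken by Pearson's r among 9570 genes, as a description in which the points share groups and library composition. For Insr it was Pcdh1 (r = 0.89), for Irs1 Atp2b4 (0.87) and for Irs2 Vps39 (0.71). For Foxo1 it was Trp53bp2 (0.9), for Foxo3 Scap (0.83) and for Igfbp1 Tuba8 (0.88). For Akt2 it was Cog4 (0.88), for Grb10 Klhl12 (0.83) and for Pik3r1 Hivep2 (0.88). Irs2 had the loosest nearest gene. For Insr, Uroc1 had the same rounded r of 0.89. The library labeled Cpt2 Ppara KO replicate 1 was included in these correlations.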

How the data were processed

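Liver RNA was sequenced in 24 libraries from 6 genotype groups as single 75-base reads from stranded mRNA libraries. The authors deposited read counts per gene, whole numbers without normalization, and FPKM, which equaled those counts scaled by gene length and library total. The submitters' processing notes name Bowtie 0.12.2, TopHat, STAR 2.5, HTSeq 0.6.1, DESeq2 and edgeR, and the builds mm8 and mm9, whereas the coordinates of the table matched GRCm38; which tool made these counts and its strand setting are not given in the sources used here. Antisense genes that overlap Insr, Irs1, Irs2 and Foxo1 had 0 to 4 counts per library.

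Counts were tested in R 4.3.3 with edgeR 4.0.16 (filterByExpr with a minimum count of 10 and total of 15, TMM, robust quasi-likelihood) in 2 fits of 16 libraries, with Benjamini-Hochberg adjustment over all genes tested and a threshold of 0.05. CPM are from edgeR after TMM over the 24 libraries, and log2 CPM used a prior count of 2. Comparisons within a gene used CPM, and comparisons between genes used FPKM. Alternatives were RLE size factors, no filter, DESeq2 1.42.0, all 24 libraries, 2 groups, the replicate block, limma 3.58.1 on log2 FPKM with pseudocounts of 1 and 0.1, and each replicate left out. The pathway list calls without Cpt2 Ppara KO replicate 1 were added after the data were seen.

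In simulated data drawn from the real means, edgeR recovered 60.2% of genes changed by a log2 fold of 1 and 10.1% of those changed by 0.5 in Tsc1 L-/- against control, and 14.3% and 1.01% in Ppara KO against control. Each simulation tested 98 genes changed by 1 and 99 changed by 0.5. In the real comparisons edgeR called 906 and 3952 genes, so these percentages are not the sensitivity of the real tests. Replicate libraries differed beyond sampling noise in every pair. The 9 genes and the pathway and marker lists were chosen with earlier results of these data known. From each list, the called gene with the largest rise and the one with the largest fall and a mean of at least 1 CPM were named in each comparison, except some that are not reported here, with the genes said in the text to be chosen after their values were seen. Promoter windows came from RefSeq. Figures were drawn with matplotlib 3.10.9.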

Additional observations from a re-analysis of the deposited data

Results flagged for a closer look

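Among 54 checks of a single library against the others of its group, 2 libraries stood apart, where chance gives about 1 in 20. Igfbp1 in Cpt2 Ppara KO replicate 2 was at 2210 CPM, with the others at 1170 to 1320 CPM, and its gap was 0.853 of the group's range. Grb10 in control replicate 1 was at 2.2 CPM, with the others at 4.91 to 5.07 CPM, a gap of 0.948 of the range. The effect of Tsc1 deletion on Insr differed between livers with and without Cpt2, by the interaction test of edgeR (−1, adjusted p = 0.0121). It was not called in the fit of all 24 libraries (adjusted p = 0.152), and it crosses the division of the libraries by Cd1d2.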

How the results depend on the processing

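Over 90 differences of the 9 genes and their alternatives (1566 values), 1512 kept their direction or stayed uncalled, 29 lost a call, 25 gained one and 0 called differences changed sign. Shares over all genes under the same setting stand in parentheses, higher then lower. Of the 9 genes, DESeq2 called 1 in Tsc1 L-/- against control (5.81% and 4.01%), 2 in Cpt2 L-/- against control (17% and 16.7%) and 2 in Ppara KO against control (17.7% and 14.8%). The fit of all 24 libraries called 3 in DKO against control (12.3% and 12.6%), 1 in DKO against Cpt2 L-/- (4.66% and 2.95%), 0 in the Tsc1 by Cpt2 interaction (0.236% and 0.229%), 2 in Ppara KO against control (17.9% and 15%) and 0 in Cpt2 Ppara KO against Cpt2 L-/- (12.9% and 10.3%). Both limma fits called 2 in Cpt2 L-/- against control (19.6% and 10.2% with a pseudocount of 1), 3 in DKO against control (27.9% and 10.8%) and 2 in Ppara KO against control (12.7% and 12.2%). With limma the balance of calls over all genes moved toward higher also in Tsc1 L-/- against control (4.76% and 1.69%), DKO against Cpt2 L-/- (12.4% and 4.5%), DKO against Tsc1 L-/- (21.1% and 10.8%) and Cpt2 Ppara KO against Ppara KO (14% and 7.51%). The fit of 2 groups called 1 in Cpt2 Ppara KO against Ppara KO (0.462% and 0.407%). With 1 replicate left out, calls ranged from 0 to 1 in Tsc1 L-/- against control, 3 to 6 in DKO against control, 1 to 2 in the Tsc1 by Cpt2 interaction, 1 to 2 in Ppara KO against control, 0 to 1 in Cpt2 Ppara KO against Cpt2 L-/- and 0 to 1 in the Cpt2 by Ppara interaction. The causes were not tested.

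Replicate numbers did not pair the libraries, with correlations of deviations of −0.255 to 0.223 over 60 pairs, 10 of them over 0.1. With the replicate block 3 genes were called in DKO against Cpt2 L-/- in place of 2, and the other counts did not move. List genes called moved by more than 1.5 times in Tsc1 L-/- against control (6, and 2 with all 24 libraries, 3 with 2 groups, 3 without the filter), Cpt2 L-/- against control (28, and 18 with all 24 libraries), DKO against Cpt2 L-/- (13, and 7 with all 24 libraries, 22 with DESeq2), the Tsc1 by Cpt2 interaction (2, and 5 with DESeq2, 0 with all 24 libraries, 1 with the replicate block), Cpt2 Ppara KO against Cpt2 L-/- (23, and 15 without the filter) and Cpt2 Ppara KO against Ppara KO (19, and 1 with 2 groups). Counts over all genes moved by more than 1.5 times in Tsc1 L-/- against control (906, and 400 with all 24 libraries, 466 with 2 groups, 583 without control replicate 3), Cpt2 L-/- against control (4235, and 2798 with all 24 libraries) and DKO against Cpt2 L-/- (2494, and 1065 with all 24 libraries, 1546 without Cpt2 L-/- replicate 3, 1428 without DKO replicate 2). In the Tsc1 by Cpt2 interaction 324 genes were called, and 754 with DESeq2, 65 with all 24 libraries, 208 with limma and a pseudocount of 0.1, 207 without control replicate 2, 206 without control replicate 4, 211 without Cpt2 L-/- replicate 3, 199 without Cpt2 L-/- replicate 4 and 150 without DKO replicate 2. In Cpt2 Ppara KO against Cpt2 L-/- 2499 were called, and 1149 without Cpt2 L-/- replicate 3, 1239 without Cpt2 L-/- replicate 4 and 1418 without Cpt2 Ppara KO replicate 2. Against Ppara KO 3475 were called, and 111 with 2 groups, 2142 without Ppara KO replicate 3 and 1728 without Cpt2 Ppara KO replicate 1. With CPM per kilobase in place of FPKM, Irs1 and Grb10 exchanged ranks 8 and 9 in Ppara KO livers. Grb10 and Irs1 rested on the fewest reads, 31 to 154 and 41 to 349 per library.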
